A study of Homo sapiens with 24 samples.

Results

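The genes described here are a set of chemokines and inflammatory cytokines: the neutrophil-attracting ligands CXCL1, CXCL2, CXCL3, CXCL5 and CXCL8, the CC chemokines CCL20 and CCL26, and the interleukins IL1A, IL1B and IL6. They were chosen by symbol, and every probe that the platform's gene table pairs with 1 of these symbols was taken. The 10 genes had 12 probes on the array, of which 10 probes were above background on at least 3 of the 24 arrays. Of the 10 genes, 9 could therefore be tested, among 13344 genes tested in all; IL1A had no such probe, and 1 of the CXCL5 probes fell out in the same way.

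RNA came from PC3 and LNCaP cells, both prostate cancer lines in long use. Cells received Siomycin A, a thiopeptide antibiotic known as an inhibitor of the transcription factor FOXM1 and of the proteasome, or the vehicle DMSO. The 8 groups were PC3 with Siomycin for 24 h, PC3 with DMSO for 24 h, PC3 with Siomycin for 48 h, PC3 with DMSO for 48 h, and the same 4 in LNCaP, each with 3 Illumina bead arrays. The labels state the dose as 0.5 µM in the treatment protocol and as 5 µM in the sample titles, and the files do not settle which was used. The lines were grown in different media, so line and medium cannot be told apart. Whether the 3 replicates of a group were grown apart is not in the labels, and the p-values cover only their spread, which may be technical. RNA from a whole culture cannot tell fewer expressing cells from less RNA per cell.

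Mean intensities lay between 314 and 499 per array, and 17010 to 20101 probes per array were above background. The lowest of both values came from the same array, replicate 3 of PC3 Siomycin 48 h. As a group the PC3 Siomycin 48 h arrays averaged 17668 ± 578 probes above background and the PC3 DMSO 48 h arrays 18975 ± 69.5 (SD, n = 3 each). Line markers went with the labels: the 5 PC3 markers were above background on all 12 PC3 arrays and the 5 LNCaP markers on all 12 LNCaP arrays, and each was brighter in its own line. Of 8 leukocyte markers, PTPRC, CD3E and TYROBP were above background on 0 of the 24 arrays, CD68 on 24, CD14 on 12, MS4A1 on 5, ITGAM on 4 and LYZ on 3. Of the fibroblast and endothelial markers, PDGFRB was above background on 0 arrays, COL1A1 on 15, VWF on 12, PECAM1 on 9, LUM on 7 and COL3A1 on 2.

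Chemokines are small secreted proteins that draw leukocytes along a gradient. CXCL8 binds the receptors CXCR1 and CXCR2 on neutrophils, and CXCL1, CXCL2, CXCL3 and CXCL5 act mainly through CXCR2. CCL20 binds CCR6 on T and dendritic cells, and CCL26 (eotaxin-3) binds CCR3 on eosinophils. IL-1 alpha and IL-1 beta signal through MYD88 to NF-kB, which in turn drives transcription of most of these chemokines and of IL6, and IL-6 signals through the IL6ST receptor subunit to STAT3. Many of the messages are short-lived, because RNA-binding proteins such as ZFP36 (tristetraprolin) direct their decay. CXCL8 and IL6 are known products of androgen-independent prostate cancer lines such as PC3.

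The 5 CXC genes lie in a cluster on human chromosome 4, IL1A and IL1B are neighbours on chromosome 2, where CCL20 also lies, and IL6 and CCL26 are on chromosome 7. The 250 bases before the start used in the promoter table are shown for the 6 members whose levels in PC3 carry the results, in the direction of the gene and taken from RefSeq on GRCh38.p14. Capitals mark an NF-kB form, GGNNTTNCC, and an AP-1 form, TGANTCA. Both were searched on both strands, and the NF-kB form was chosen after the windows had been seen. For CCL26 that start lies inside the annotated gene, which reaches up to position 75791597, so the sequence before its outermost start is not shown or searched.
CXCL1, plus strand, chr4:73869143-73869392: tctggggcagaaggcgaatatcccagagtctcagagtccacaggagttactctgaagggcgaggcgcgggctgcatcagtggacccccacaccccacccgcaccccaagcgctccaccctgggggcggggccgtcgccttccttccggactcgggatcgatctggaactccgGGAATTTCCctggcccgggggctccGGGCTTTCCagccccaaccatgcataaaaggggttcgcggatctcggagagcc
CXCL2, minus strand, chr4:74099196-74099445: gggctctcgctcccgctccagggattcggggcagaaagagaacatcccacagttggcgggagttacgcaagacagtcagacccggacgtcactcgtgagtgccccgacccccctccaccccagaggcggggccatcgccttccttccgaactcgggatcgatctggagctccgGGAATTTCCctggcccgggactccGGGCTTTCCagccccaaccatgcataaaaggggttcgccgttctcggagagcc
CXCL8, plus strand, chr4:73740319-73740568: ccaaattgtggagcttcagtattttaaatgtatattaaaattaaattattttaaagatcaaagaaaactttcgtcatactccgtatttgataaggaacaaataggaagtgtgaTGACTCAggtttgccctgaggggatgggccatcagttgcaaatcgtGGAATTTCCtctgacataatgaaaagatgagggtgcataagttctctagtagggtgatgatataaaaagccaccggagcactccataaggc
IL6, plus strand, chr7:22726950-22727199: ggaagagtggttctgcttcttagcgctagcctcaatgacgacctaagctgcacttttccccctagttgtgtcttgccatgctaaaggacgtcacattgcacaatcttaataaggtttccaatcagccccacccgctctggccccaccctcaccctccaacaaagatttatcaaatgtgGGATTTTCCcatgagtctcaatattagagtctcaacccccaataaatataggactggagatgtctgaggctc
IL1B, minus strand, chr2:112836780-112837029: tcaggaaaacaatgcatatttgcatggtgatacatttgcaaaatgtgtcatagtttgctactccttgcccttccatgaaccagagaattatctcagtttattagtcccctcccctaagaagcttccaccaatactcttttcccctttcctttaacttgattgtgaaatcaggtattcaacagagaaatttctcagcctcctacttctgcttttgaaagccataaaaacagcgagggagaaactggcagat
CCL26, minus strand, chr7:75789747-75789996: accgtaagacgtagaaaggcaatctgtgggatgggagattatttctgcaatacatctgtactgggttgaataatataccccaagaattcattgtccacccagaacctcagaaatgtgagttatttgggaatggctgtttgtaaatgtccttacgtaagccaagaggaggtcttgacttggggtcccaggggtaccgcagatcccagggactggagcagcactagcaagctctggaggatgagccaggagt
The NF-kB form was found in the windows of 7 of the 10 members (CXCL1, CXCL2, CXCL3, CXCL5, CXCL8, CCL20 and IL6), and in 15.0% of the 35116 windows of this length in the table. CXCL1 and CXCL2 hold it in the same places, with the matches GGAATTTCC and GGGCTTTCC at 78 and 53 bases before the start of CXCL1 and at 77 and 53 bases before that of CXCL2. CXCL8 holds GGAATTTCC at 91 bases before its start and an AP-1 match, TGACTCA, at 137 bases, and the AP-1 form is in 6.57% of windows. No match to either form lies in the CCL26 and IL1B windows shown. The CXCL1 and CXCL3 windows are 81.4% identical, CXCL2 and CXCL3 73.4%, and CXCL1 and CXCL2 70.1%. Probe sequences were not used here, so reading of one CXCL message by the probe of another was not tested.

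In DMSO cultures 8 of the 9 tested members were higher in PC3 at 24 h, where 60.9% of all genes differed between the lines in either direction (limma, adjusted p under 0.05, as in every count here). At 48 h it was again 8 of 9, with a background of 62.5%. Most of these probes passed the filter through their PC3 arrays, which fixes the direction, so the counts are a description and nothing is read from them. The same holds for the adjusted p-values given with the folds between lines below, which are no support for that direction. In LNCaP DMSO cultures no member's brightest probe was above background on any array, so the PC3 excess is given as a lower bound, which holds for the processing used. Over the alternatives the 24 h log2 difference of CXCL8 ran from 5.23 to 7.45 (7.33 as reported). That of IL1B ran from 2.64 to 4.84 (4.62 as reported).
CXCL8 had the largest bound, at least 144-fold higher in PC3 DMSO than in LNCaP DMSO cultures at 24 h (adjusted p = 2.1e-19) and at least 97.3-fold at 48 h (adjusted p = 5.7e-19), both on its brighter probe. The other CXCL8 probe, above background on 1 of 3 LNCaP DMSO arrays at 24 h and 2 of 3 at 48 h, measured less, 44.8-fold and 25.1-fold (adjusted p = 1.5e-15 and 2.5e-14). IL1B was at least 20.3-fold higher in PC3 at 24 h (adjusted p = 1.8e-19) and at least 15.2-fold at 48 h (adjusted p = 5.6e-19), and CXCL1 at least 15.8-fold and 8.44-fold (adjusted p = 2.9e-12 and 1.3e-10). For IL6 the bounds were 8.01-fold at 24 h (adjusted p = 6.1e-15) and 15.4-fold at 48 h (adjusted p = 9.5e-17). CCL26 followed with at least 4.58-fold at 24 h and 3.51-fold at 48 h (adjusted p = 1.4e-11 and 2.8e-10), and CXCL2 with at least 2.19-fold and 2.51-fold (adjusted p = 2.3e-06 and 4.7e-07). CXCL5 and CCL20 lay close to background in PC3 too, with bounds between 1.14-fold and 1.52-fold, and CXCL3 was not above background on any DMSO array of either line.

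**Figure D1:**
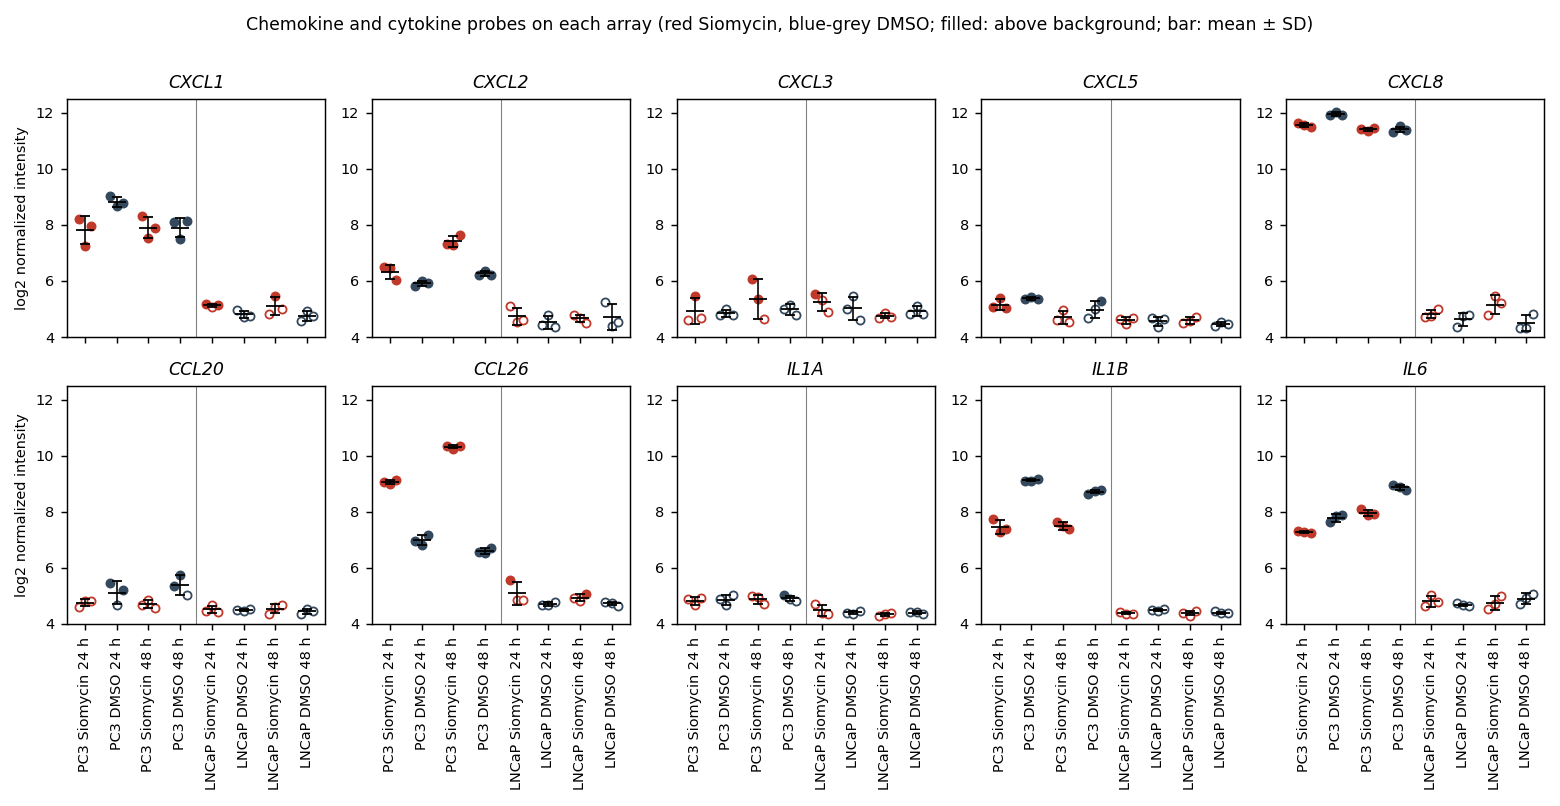
Log2 normalized intensity of the 10 genes on every array (brightest kept probe; for IL1A its only probe), with Siomycin groups in red, DMSO groups in blue-grey, filled points above background and bars for the group mean ± SD (n = 3). CCL26 is higher and IL1B lower in PC3 with Siomycin than with DMSO at both times, and in LNCaP nearly all points are open.

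In PC3 cells Siomycin moved members of the set in opposite directions. At 24 h, 4 of the 9 tested members changed: CCL26 rose, and CXCL1, IL1B and IL6 fell. Across all genes 23.0% were called at that time, 11.0% higher and 11.9% lower in Siomycin. At 48 h, 5 of 9 changed, with CCL26 and CXCL2 higher and CCL20, IL1B and IL6 lower, against a background of 45.8% (19.5% higher and 26.3% lower), so that the members' share was close to that of all genes. The CCL20 probe was kept through DMSO arrays alone, which fixes its direction. The median log2 fold change over the 9 members was -0.36 at 24 h and -0.00 at 48 h, and over all genes -0.00 and -0.04.

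CCL26 had the largest absolute fold change of the members in PC3. Its levels on the log2 scale were 9.05, 8.98 and 9.14 in PC3 Siomycin 24 h cultures, against 6.95, 6.83 and 7.17 in PC3 DMSO 24 h cultures. At 48 h they were 10.34, 10.25 and 10.35 in Siomycin, against 6.57, 6.53 and 6.71 in DMSO. The 6 treated arrays all lay above the 6 control arrays, with a gap wider than the spread within any group. The eotaxin message was thus 4.20-fold higher at 24 h (log2 fold change 2.07 ± 0.14, SE; adjusted p = 2.8e-09) and 13.1-fold higher at 48 h (3.71 ± 0.14; adjusted p = 8.2e-14). The effect itself was larger at 48 h than at 24 h, by 1.64 ± 0.20 (adjusted p = 4.9e-06). In Siomycin cultures CCL26 was 1.26 ± 0.14 higher at 48 h than at 24 h (adjusted p = 6.6e-07), while in DMSO cultures it was 0.38 ± 0.14 lower on the log2 scale (log2 fold change -0.38, adjusted p = 0.0496), a call lost in 8 of 15 alternatives.

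IL1B, which encodes the precursor of the secreted IL-1 beta, moved the other way. Its log2 levels were 7.75, 7.26 and 7.38 in PC3 Siomycin 24 h cultures, against 9.09, 9.10 and 9.16 in DMSO. At 48 h they were 7.65, 7.49 and 7.37 in Siomycin, against 8.65, 8.73 and 8.77 in DMSO. No treated array reached any control array. The change was -1.66 ± 0.10 at 24 h (3.15-fold lower, adjusted p = 3.3e-10) and -1.21 ± 0.10 at 48 h (2.32-fold lower, adjusted p = 3.2e-09). The difference between these effects was 0.44 ± 0.14 (adjusted p = 0.022). It was 0.02 (adjusted p = 0.97) when arrays were centred on their medians in place of quantile normalization, and the call was also lost without PC3 Siomycin 24 h replicate 2 or 3, PC3 DMSO 48 h replicate 1 or PC3 Siomycin 48 h replicate 1 (0.34 to 0.41), and with a trended, robust moderation of the spread (0.44, adjusted p = 0.082). The treated level at 48 h minus that at 24 h was 0.04 ± 0.10 (adjusted p = 0.80), but -0.62 with median centring (adjusted p = 0.0040), whereas the DMSO level was lower at 48 h than at 24 h (-0.40 ± 0.10, adjusted p = 0.0032).

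IL1A, the other IL-1 ligand, was above background on 1 array, a PC3 DMSO 48 h culture. Its level ran from 4.66 to 4.99 over the 6 PC3 Siomycin arrays and from 4.67 to 5.02 over the 6 PC3 DMSO arrays, so that a change was not detectable at this signal.

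IL6 fell with Siomycin at both times, and was higher at 48 h than at 24 h in both arms. Log2 levels were 7.33, 7.26 and 7.25 in Siomycin at 24 h, against 7.62, 7.83 and 7.88 in DMSO. At 48 h they were 8.09, 7.89 and 7.92 in Siomycin, against 8.96, 8.87 and 8.78 in DMSO. Treated and control arrays of 1 time did not overlap, but the 48 h treated arrays lay above all 24 h control arrays. Against the control of the same time IL6 had a log2 fold change of -0.50 ± 0.12 at 24 h (adjusted p = 0.0049). At 48 h it was -0.90 ± 0.12 (adjusted p = 3.6e-06). The 24 h call was narrowly lost with median centring (-0.51, adjusted p = 0.054). Between the times, IL6 was 1.09 ± 0.12 higher at 48 h than at 24 h in DMSO (adjusted p = 1.0e-06) and 0.69 ± 0.12 higher in Siomycin (adjusted p = 0.00013; 0.02 with median centring, adjusted p = 0.93). With the 24 h DMSO arrays as control in place of the 48 h ones, IL6 at 48 h was at 0.19 (adjusted p = 0.22), so the direction at 48 h depends on the control of that time.

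CXCL1, a ligand of CXCR2, fell at 24 h and was level with its control at 48 h. In PC3 Siomycin 24 h cultures its log2 levels were 8.20, 7.24 and 7.96, against 9.03, 8.66 and 8.77 in DMSO. At 48 h they were 8.30, 7.54 and 7.87 in Siomycin, against 8.09, 7.51 and 8.12 in DMSO. The groups did not overlap at 24 h and overlapped fully at 48 h, and replicate 2 was the lowest array in each of the 4 PC3 groups. The change was -1.02 ± 0.23 at 24 h (2.02-fold lower, adjusted p = 0.0025) and -0.00 ± 0.23 at 48 h (adjusted p = 0.99, 95% interval -0.48 to 0.47). The effects differed by 1.01 ± 0.32 (adjusted p = 0.025), and this call was lost with median centring (0.56, adjusted p = 0.24). It was also lost without any 1 of 4 arrays: PC3 DMSO 24 h replicate 1, PC3 Siomycin 24 h replicate 2, PC3 DMSO 48 h replicate 2 and PC3 Siomycin 48 h replicate 1, with values between 0.73 and 0.91. The 48 h level of the control was lower than the 24 h level (-0.91 ± 0.23, adjusted p = 0.0044), and the Siomycin level showed no such difference (0.10 ± 0.23, adjusted p = 0.77). With median centring the Siomycin level was lower at 48 h than at 24 h (-0.55, adjusted p = 0.046).

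CXCL8 (interleukin-8) had 2 probes, reported apart. On the brighter one, the log2 levels were 11.63, 11.58 and 11.47 in PC3 Siomycin 24 h cultures, against 11.91, 12.04 and 11.93 in DMSO. At 48 h they were 11.41, 11.33 and 11.47 in Siomycin, against 11.31, 11.51 and 11.39 in DMSO. The 24 h groups did not overlap, but the difference of -0.40 ± 0.16 missed the threshold (adjusted p = 0.074). The other probe gave -0.36 ± 0.20 at 24 h (adjusted p = 0.27) and did not overlap either. The brighter probe's 24 h difference passed under 5 of 15 alternatives, among them the authors' deposited table of processed values (-0.39, adjusted p = 0.0022) and an offset of 50 (-0.39, adjusted p = 0.0015). At 48 h the brighter probe was at -0.00 ± 0.16 (95% interval -0.33 to 0.32) and the other at 0.20 ± 0.20 (adjusted p = 0.48). In DMSO cultures CXCL8 was lower at 48 h than at 24 h on both probes (-0.55, adjusted p = 0.010, and -0.59, adjusted p = 0.038).

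**Figure D2:**
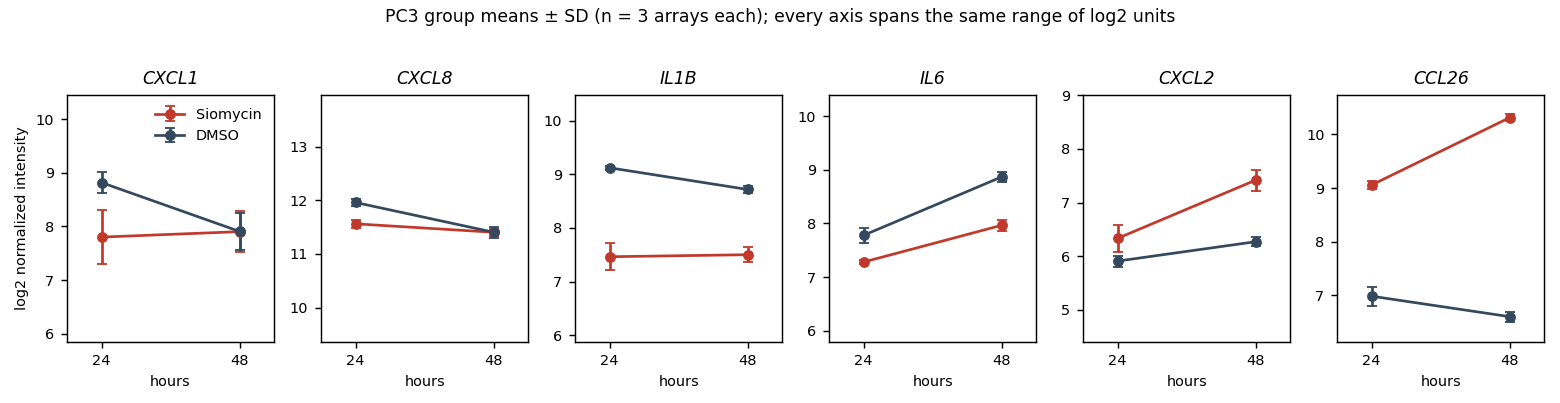
PC3 log2 normalized intensities (mean ± SD, n = 3) against hours, Siomycin in red and DMSO in blue-grey, with every axis spanning the same number of log2 units. The control level of CXCL1 and CXCL8 is lower at 48 h and meets the Siomycin level, IL1B stays apart, IL6 is higher at 48 h in both arms, and CXCL2 and CCL26 part further at 48 h.

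CXCL2, a close relative of CXCL1 and like it a CXCR2 ligand, rose. Its log2 levels were 7.32, 7.29 and 7.64 in PC3 Siomycin 48 h cultures, against 6.21, 6.37 and 6.23 in DMSO. At 24 h they were 6.49, 6.46 and 6.04 in Siomycin, against 5.81, 6.01 and 5.91 in DMSO. Neither pair of groups overlapped. The 48 h change was 1.15 ± 0.19 (2.22-fold, adjusted p = 4.9e-05), and the 24 h difference of 0.42 ± 0.19 missed the threshold (adjusted p = 0.13). The 48 h change kept its call in all 16 alternatives but was smaller with median centring (0.70) and in the authors' deposited table (0.63). The effects at 48 h and 24 h differed by 0.72 ± 0.27 (adjusted p = 0.057), and this passed in the authors' deposited table (adjusted p = 0.013), with an offset of 50 (adjusted p = 0.0036) and with array weights (adjusted p = 0.048).

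The 3 remaining members lay near background in PC3. CCL20 was above background on 0 of 3 Siomycin arrays at either time, against 2 of 3 DMSO arrays at each time. Its probe passed the filter through these DMSO arrays alone, which fixes the direction, so its values are a description and nothing is read from its call. Its 48 h log2 levels were 4.68, 4.85 and 4.56 in Siomycin, against 5.36, 5.75 and 5.03 in DMSO, with no overlap, and its message was at least 1.51-fold lower in Siomycin (log2 fold change -0.68 ± 0.17, adjusted p = 0.0024). The 24 h difference was -0.36 ± 0.17 (adjusted p = 0.15), and -0.58 without PC3 DMSO 24 h replicate 2 (adjusted p = 0.014).
CXCL5 was above background on 3 of 3 arrays of both PC3 groups at 24 h, and at 48 h on 0 of 3 Siomycin and 1 of 3 DMSO arrays. Siomycin minus DMSO was -0.22 ± 0.14 for the earlier time (adjusted p = 0.30). For 48 h it was -0.28 ± 0.14 (adjusted p = 0.12). The 48 h difference passed without PC3 DMSO 48 h replicate 1 (-0.43, adjusted p = 0.016) or PC3 Siomycin 48 h replicate 2 (-0.41, adjusted p = 0.030). CXCL3 was above background on 1 of 3 Siomycin arrays at 24 h and 2 of 3 at 48 h, and on 0 DMSO arrays. Its 48 h difference was 0.36 ± 0.28 (adjusted p = 0.31). It was 0.72 (adjusted p = 0.031) once PC3 Siomycin 48 h replicate 3, the dimmest of the 24 arrays, was left out. The CXCL3 probe was kept through Siomycin arrays alone, which favours a rise.

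In LNCaP the members were at or below the limit of detection in both arms. At 24 h, 0 of 9 tested members were called, where 20.8% of all genes were (10.5% higher and 10.4% lower). At an unadjusted p under 0.05, which at least those 20.8% of all genes reached, 1 member (CCL26) passed at 24 h. At 48 h 1 of 9 was called, against 37.4% of all genes (19.0% higher and 18.4% lower). That gene was CXCL8 (0.66 ± 0.16, adjusted p = 0.0019), but its brighter probe was above background on 0 of the 6 arrays and the groups overlapped. The other CXCL8 probe, above background on 1 of 3 Siomycin and 2 of 3 DMSO arrays, was at -0.21 ± 0.20 (adjusted p = 0.51), so the 2 probes disagreed and no change is read from them.
Apart from the dimmer CXCL8 probe, those of CCL26, CXCL1 and CXCL3 were the kept probes above background on some LNCaP arrays, all of them treated. CCL26 was above background on 1 of 3 Siomycin arrays at each time and on 0 DMSO arrays. Log2 levels at 24 h were 5.57, 4.84 and 4.84 in Siomycin, against 4.68, 4.69 and 4.80 in DMSO. The difference missed the threshold at both times, with 0.36 ± 0.14 (adjusted p = 0.075) for 24 h and 0.21 ± 0.14 (adjusted p = 0.28) for 48 h. Without LNCaP Siomycin 24 h replicate 2 or replicate 3 it passed at 24 h (0.49, adjusted p = 0.027 for each), so that the value then rested on replicate 1, the array above background, with 1 other. CXCL1 was above background on 2 of 3 LNCaP Siomycin arrays at 24 h and on 1 of 3 at 48 h, and on 0 DMSO arrays, with differences of 0.32 ± 0.23 (adjusted p = 0.37) and 0.35 ± 0.23 (adjusted p = 0.25). CXCL3 was above background on 1 of 3 Siomycin arrays at 24 h. CXCL2, CXCL5, CCL20, IL1A, IL1B and IL6 were above background on 0 of the 12 LNCaP arrays.

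**Figure D3:**
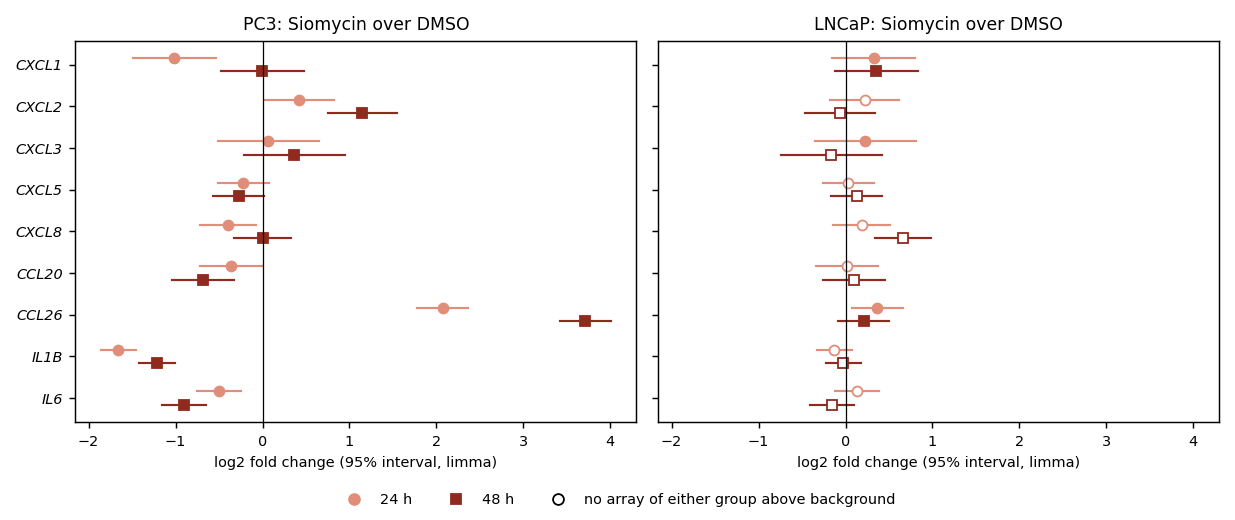
Log2 fold changes of Siomycin over DMSO with 95% intervals (limma) for the 9 tested members in PC3 and LNCaP, circles for 24 h and squares for 48 h, with open marks where no array of either group was above background. In PC3, CCL26 lies at 2.07 and 3.71 and IL1B at -1.66 and -1.21, while the LNCaP marks lie between -0.16 and 0.66.

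Effects were compared between lines and times by the difference itself. At 24 h the PC3 effect differed from the LNCaP effect for 4 of 9 members (CXCL1, CCL26, IL1B and IL6), with 14.2% of all genes called. The IL6 call among them was lost with median centring (-0.64, adjusted p = 0.14). At 48 h it differed for 6 of 9 (CXCL2, CXCL8, CCL20, CCL26, IL1B and IL6), with 43.2% of all genes called. The CCL20 probe was kept through PC3 DMSO arrays alone, which favours the sign of its difference, so nothing is read from that call. On the LNCaP side of these differences every member was at or near background in both arms. A fall could not be seen there at that signal. For members that fell in PC3 these differences therefore do not compare the response of the lines. A rise that starts below background can also stay unseen or be understated. In DMSO cultures CXCL2 was at least 2.51-fold higher in PC3 at 48 h, and its PC3 rise was 2.22-fold. For CCL26 the bounds were 4.58-fold at 24 h and 3.51-fold at 48 h, against rises of 4.20-fold and 13.1-fold. The CXCL2 and CCL26 differences therefore hold for the measured signal, and whether the lines respond alike cannot be told from them. The CXCL8 difference at 48 h comes from LNCaP arrays below background (-0.13 with the mean of both probes, adjusted p = 0.67).
Between 48 h and 24 h the PC3 effect differed for 3 of 9 members (CXCL1, CCL26 and IL1B; 25.1% of all genes), and the LNCaP effect for 0 of 9 (8.90% of all genes). These comparisons share arrays with the comparisons of time within an arm. In PC3 DMSO cultures 6 of 9 members differed between 48 h and 24 h, IL6 higher and CXCL1, CXCL5, CXCL8, CCL26 and IL1B lower, where 28.3% of all genes differed. The CXCL5 and CCL26 calls there were each lost in 8 of 15 alternatives. In PC3 Siomycin cultures 4 of 9 did, with CXCL2, CCL26 and IL6 higher and CXCL5 lower, where 39.6% of all genes differed. With median centring this became 1 higher (CCL26) and 4 lower (CXCL1, CXCL5, CXCL8 and IL1B), and the CXCL2 and IL6 calls were lost. The share of all genes called with median centring was not counted for this comparison. The CXCL5 call was lost in 4 other alternatives. The CXCL5 probe passed the filter through its 24 h PC3 arrays, above background on 3 of 3 in each arm. That favours a lower level at 48 h, so nothing is read from the CXCL5 calls between times in DMSO or in Siomycin. In LNCaP, 0 of 9 members differed between the times in DMSO (0.547% of all genes) and 0 of 9 in Siomycin (21.0%). At an unadjusted p under 0.05, 0 members passed in DMSO and 1 (CXCL8) in Siomycin, and CXCL8 also for the difference of the LNCaP effects, with its brighter probe below background on all 12 arrays. Of all genes at least the shares called reached that level, so nothing is read from this.

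Genes around the members were read from lists of the same pathways (other chemokines, other cytokines, receptors, IL-1 processing, IL-1 and IL-6 signalling, NF-kB, cytokine mRNA decay and inflammatory effectors). Their counts stand against the shares of all genes called, 23.0% at 24 h and 45.8% at 48 h in PC3, and 20.8% and 37.4% in LNCaP. With median centring 1412 and 5355 of 13344 genes were called in PC3 at 24 h and 48 h, and 1305 and 3443 in LNCaP. Among other chemokines, 1 of 4 tested genes fell in PC3 at 24 h: CXCL6, a neighbour of CXCL1 in the chromosome 4 cluster and another CXCR2 ligand (-0.70 ± 0.16, adjusted p = 0.0035). At 48 h CCL5, a T cell attractant, rose (0.51 ± 0.20, adjusted p = 0.040; call lost with median centring), and 0 of the 4 genes were called in LNCaP at either time. Of 9 other cytokines, 2 rose and 2 fell in PC3 at 24 h, and 3 rose at 48 h. IL15, a growth factor of T and NK cells, rose by 1.28 ± 0.17 at 24 h (adjusted p = 1.9e-05) and was 0.74 ± 0.17 higher at 48 h (adjusted p = 0.0016), and the IL-1 family member IL33 fell at 24 h (-1.23 ± 0.16, adjusted p = 1.2e-05). IL24 rose at 48 h (0.68 ± 0.12, adjusted p = 5.8e-05). With median centring the 48 h calls of IL15 and IL24 were lost and the list stood at 1 higher and 1 lower. In LNCaP, 0 of 9 cytokines were called at 24 h and 2 of 9 at 48 h, IL15 higher and IL18 lower, the IL15 call being lost with median centring, in the authors' deposited table and with an offset of 50.

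Of the NF-kB subunits and feedback genes, 3 of 11 fell in PC3 at 24 h and 5 of 11 at 48 h, and 0 rose at either time. The list's share called in either direction was close to that of all genes, of which 11.9% were lower at 24 h and 26.3% at 48 h. With median centring 2 fell in PC3 at 24 h, the NFKB1 call being lost, and 6 fell at 48 h. NFKBIZ, a co-regulator of cytokine genes, was at -0.66 ± 0.13 (adjusted p = 0.00062), and NFKBIA, the NF-kB inhibitor that NF-kB itself induces, at -0.51 ± 0.08 (adjusted p = 6.7e-05) at 24 h. NFKB1, which encodes the p50 precursor, was at -1.43 ± 0.08 (adjusted p = 1.5e-11) and NFKBIB at -0.99 ± 0.15 (adjusted p = 1.5e-05) at 48 h. The list's median was -0.14 at 24 h and -0.05 at 48 h, against -0.00 and -0.04 over all genes. In LNCaP, 0 of 11 were called at 24 h, while 4 fell and 1 rose at 48 h, among them NFKB1 (-0.73 ± 0.08, adjusted p = 3.4e-07).

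Of the mRNA decay factors in PC3, 2 of 7 rose and 1 fell at 24 h, and 3 rose and 2 fell at 48 h. ZFP36 was at 1.05 ± 0.15 at 24 h (adjusted p = 4.6e-05) and at 2.83 ± 0.15 at 48 h (7.10-fold, adjusted p = 1.3e-11), and its relative ZFP36L1 at 0.51 ± 0.15 (adjusted p = 0.015) and 1.89 ± 0.15 (adjusted p = 2.3e-09). In LNCaP, 1 rose and 2 fell at 24 h, and 3 rose and 2 fell at 48 h, with ZFP36 at 0.84 ± 0.15 at 48 h (adjusted p = 0.00019) and KHSRP, another decay factor, at -0.88 ± 0.16 (adjusted p = 0.00019). With median centring 0 were called in LNCaP at 24 h, and in PC3 at 24 h ZFP36L1 was lost and 1 rose. The list's medians lay between -0.02 and 0.16 in the 4 comparisons.

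Of 13 tested genes of IL-1 and IL-6 signalling, 1 rose and 1 fell in PC3 at 24 h, and 2 rose and 5 fell at 48 h. The adaptor MYD88 was at -1.65 ± 0.18 (adjusted p = 2.4e-07) and the kinase IKBKB at -1.07 ± 0.18 (adjusted p = 4.1e-05) at 48 h. CEBPB, a transcription factor of acute-phase genes, rose at 24 h in PC3 (0.69 ± 0.07, adjusted p = 3.9e-07), fell there at 48 h (-0.36 ± 0.07, adjusted p = 0.00017; no longer called with median centring) and rose at both times in LNCaP (1.10 ± 0.07 and 1.12 ± 0.07, adjusted p = 3.3e-10 and 1.2e-10). In LNCaP, 1 rose and 1 fell at 24 h, and 3 rose and 4 fell at 48 h. With median centring the 2 PC3 risers at 48 h were no longer called and the list stood at 0 higher and 6 lower.
Among 9 receptors, 0 were called in PC3 at 24 h, and 2 rose and 2 fell at 48 h, led by the chemokine scavenger ACKR3 (1.48 ± 0.16, adjusted p = 3.0e-07) and the IL-1 co-receptor IL1RAP (1.24 ± 0.17, adjusted p = 3.4e-06). In LNCaP, 3 rose at 24 h, and 3 rose and 1 fell at 48 h, with IL6ST at 0.47 ± 0.12 and 0.63 ± 0.12 (adjusted p = 0.0097 and 0.00035). With median centring 0 receptors were called in LNCaP at 24 h, and 2 rose and 0 fell at 48 h. Of 5 genes of IL-1 processing, CASP4, an inflammatory caspase, rose in PC3 at 24 h (1.35 ± 0.10, adjusted p = 5.5e-09) and PYCARD, the inflammasome adaptor, fell (-0.68 ± 0.16, adjusted p = 0.0036). At 48 h 1 rose and 3 fell in PC3, with the pore-forming GSDMD at -0.74 ± 0.09 (adjusted p = 9.1e-07). In LNCaP 2 rose at 24 h and 3 at 48 h. With median centring the PC3 riser at 48 h was lost and 4 fell, and in LNCaP 1 rose at 24 h. Of 9 inflammatory effectors, 1 fell in PC3 at 24 h, the plasminogen activator PLAU (-0.92 ± 0.19, adjusted p = 0.0010), and 1 rose and 3 fell at 48 h, with S100A9 at -1.19 ± 0.15 (adjusted p = 2.4e-06) and the riser lost with median centring, while 0 were called in LNCaP at either time. Beside these counts of 0, an unadjusted p under 0.05 was reached in LNCaP at 24 h by 1 other chemokine, 2 other cytokines, 1 NF-kB gene and 3 effectors. At 48 h it was reached by 1 other chemokine and 2 effectors, and in PC3 at 24 h by 3 receptors. Of all genes at least the shares called reached that level, 20.8% and 37.4% in LNCaP and 23.0% in PC3 at 24 h. Nothing is read from these counts.

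**Figure D4:**
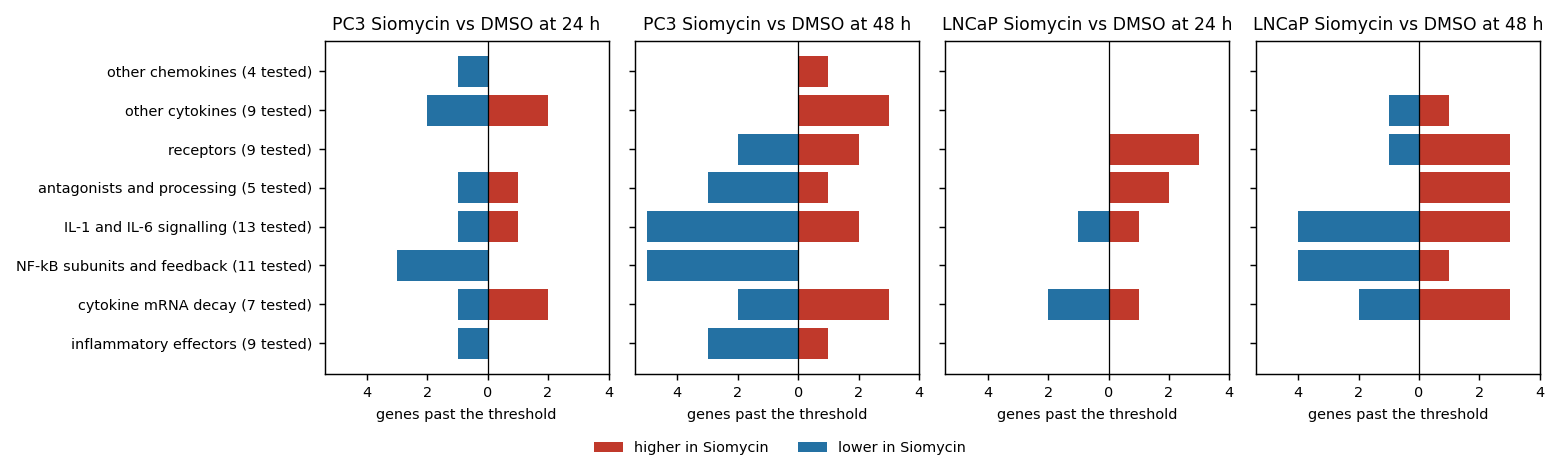
Number of genes of each related list past the threshold in the 4 comparisons of Siomycin with DMSO, higher in Siomycin to the right in red and lower to the left in blue. The NF-kB list has 0 higher genes in PC3 (3 lower at 24 h and 5 at 48 h), and the decay list has genes on both sides.

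The leukocyte marker list was brighter with treatment in PC3. Its summed normalized intensity over 8 genes ran from 967 to 1043 in Siomycin and from 642 to 754 in DMSO at 24 h, and from 1907 to 2434 in Siomycin and from 798 to 873 in DMSO at 48 h. The sum was carried by CD68, a lysosomal gene that was above background on all 24 arrays, and of the 5 list genes tested 2 rose in PC3 at 48 h. The part of this list in the members' changes was not tested.

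The genes whose 8 group means ran most like a member's, each centred on its own mean, were ranked by root mean square difference among 13335 genes. CXCL1 was closest to KRT80 (0.12), ANPEP (0.15) and CXCL6 (0.20). CXCL2 was closest to IFFO1 (0.13), DMRTA1 (0.18) and ECM1 (0.18), and CXCL8 to BASP1 (0.20), CDH2 (0.26) and S100A16 (0.27). IL1B had RIPPLY3, FABP4 and FJX1 at 0.20 each, and IL6 had TGFB1I1 (0.22), C12orf56 (0.27) and ADORA2B (0.27). CCL26 had no gene as close: the nearest were ANGPTL4 (0.43), MLLT11 (0.47) and PIM1 (0.56). The 8 means share their arrays and the gap between lines, so these are descriptions only.

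**Figure D5:**
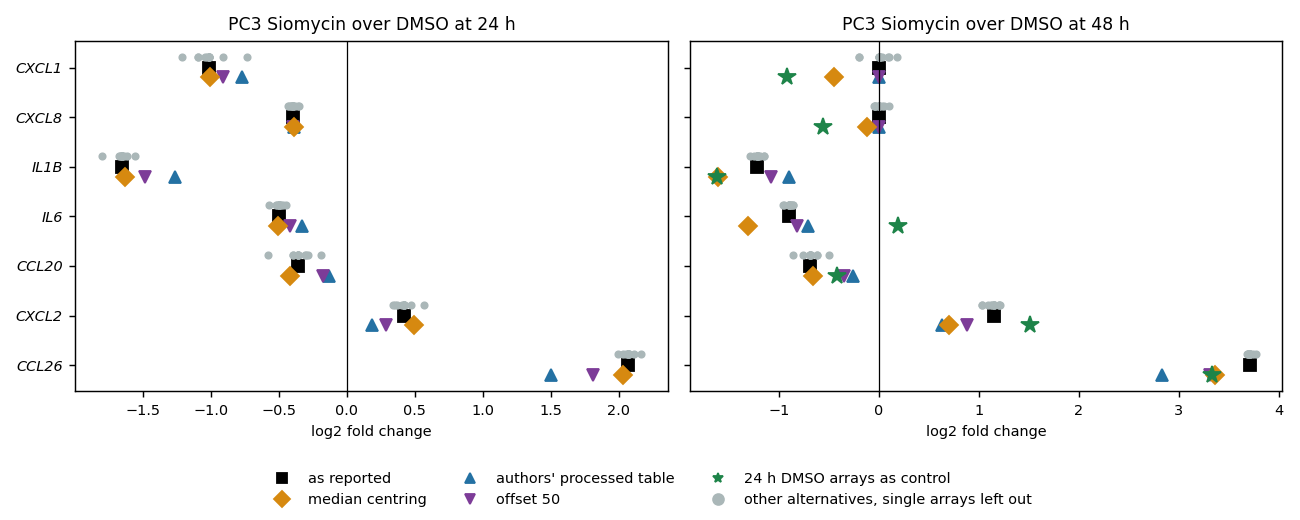
Log2 fold changes of Siomycin over DMSO in PC3 for 7 members at 24 h and 48 h as reported (black squares), under 4 named alternatives and under the others (grey points). CCL26 and IL1B keep their side of 0 throughout, while IL6 at 48 h crosses to 0.19 against the 24 h DMSO arrays.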

How the data were processed

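Gene expression was measured on Illumina bead arrays in 24 samples, grouped by their labels into 8 groups of 3. Per the file headers, the deposited scanner file gives an intensity on a linear scale and a detection p-value for each of 47318 probes. How the authors computed that p-value was not stated in what was used here. The authors' second table holds log2 values. The submitters' processing notes name lumi, with no version. The table equalled log2 of the quantile normalized intensities to within 5.1e-09, without background correction, and was used as an alternative, with column medians of 6.91.

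Bright and very dim probes alike had small detection p-values, so limma's neqc was adapted. Probes with p above 0.9 gave each array its background centre, as their median signal, and dimmer probes gave the background SD. Normexp with an offset of 16, log2 and quantile normalization followed. The offset understates changes of dim probes. A probe counted as above background with p below 0.01 and signal over the centre. The 25215 probes for which 3 or more arrays met this were kept. Of the probes, 30111 had 1 gene symbol, 8 several and 17199 none. A gene was its brightest kept probe (13344 genes).

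limma 3.58.1 in R 4.3.3 was fitted to 8 group means over all 24 arrays (16 residual degrees of freedom), with two-sided p-values adjusted by Benjamini-Hochberg over all 13344 genes and calls under 0.05. Errors of fold changes are limma's standard errors. A fold against a group below background on all 3 arrays is a bound, set per array by the higher of the probe's own level and the lowest level above background. Such a bound is not a detection limit and holds for this processing only. The script was tested on simulated data. No slide or scan batch was used here. Members and lists were chosen with earlier results of these data known. All members are named. From each related list at most the 2 genes with the largest absolute change among those called in each comparison of Siomycin with DMSO are named, and CXCL6, the marker genes and the genes most like a member follow rules of their own. Windows were aligned globally with Biopython 1.88. Alternatives covered background correction, offset, scaling, filter, probe choice, replicate block, weights, the moderation of the spread, the control arrays and single arrays left out, and, chosen after seeing the data, leaving out 2 arrays in doubt at once. Precision is limited by having 3 arrays a group.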

Additional observations from a re-analysis of the deposited data

Results flagged for a closer look

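The measured change with Siomycin differed between times or lines, by limma's test of the difference itself, for the following 13 values on the log2 scale. Between 48 h and 24 h in PC3, the effects on CXCL1 differed by 1.01 (adjusted p = 0.025), on CCL26 by 1.64 (adjusted p = 4.9e-06) and on IL1B by 0.44 (adjusted p = 0.022). The DMSO level of all 3 genes was itself lower at 48 h than at 24 h (-0.91 for CXCL1, -0.38 for CCL26 and -0.40 for IL1B). The CXCL1 and IL1B differences between effects lost their calls in 5 and 6 of 21 alternatives, and the CCL26 DMSO difference in 8 of 15.

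Between PC3 and LNCaP at 24 h, the effects differed by -1.34 for CXCL1 (adjusted p = 0.0074), by 1.71 for CCL26 (adjusted p = 7.9e-06), by -1.53 for IL1B (adjusted p = 3.8e-07) and by -0.63 for IL6 (adjusted p = 0.017; with median centring -0.64, adjusted p = 0.14). At 48 h they differed by 1.21 for CXCL2 (adjusted p = 0.0011), -0.66 for CXCL8 (adjusted p = 0.020), -0.78 for CCL20 (adjusted p = 0.013), 3.50 for CCL26 (adjusted p = 6.0e-11), -1.19 for IL1B (adjusted p = 7.4e-07) and -0.74 for IL6 (adjusted p = 0.0015). The other CXCL8 probe was at 0.41 (adjusted p = 0.30), and the CXCL8 call was lost in 5 of 21 alternatives. The CCL20 probe was kept through PC3 DMSO arrays alone, which favours the sign of its difference, so nothing is read from that call. In LNCaP the probes of these genes were above background on at most 2 of 3 arrays of any group, and CXCL2, CXCL8 (brighter probe), CCL20, IL1B and IL6 on 0 of 12. A fall could not be seen there at that signal. For members that fell in PC3 these differences therefore do not compare the response of the lines. A rise of CXCL2 or CCL26 from below background could also stay unseen or be understated in LNCaP. Whether the lines respond alike therefore cannot be told from their differences either.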

How the results depend on the processing

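Over the members' single fold changes, 1395 of the values under an alternative kept direction and call, 41 lost the call with the same sign and 34 gained one with the same sign. In 36 more, uncalled before and after, the sign changed (values from -0.20 to 0.19). In 3, a called direction turned or a call was made in the opposite direction. These were IL6 in PC3 at 48 h with the 24 h DMSO arrays as control (0.19, adjusted p = 0.22), and CXCL1 and IL1B in PC3 Siomycin at 48 h against 24 h with median centring (-0.55 and -0.62, adjusted p = 0.046 and 0.0040, limma). CCL26 in PC3 kept its call at both times in every alternative (1.50 to 2.17 at 24 h, 2.84 to 3.77 at 48 h), as did IL1B (-1.80 to -1.26 at 24 h, -1.62 to -0.90 at 48 h). Among the lost calls were CCL20 in PC3 at 48 h with the 24 h controls (-0.41, adjusted p = 0.051) and IL6 between lines at 24 h with median centring (-0.64, adjusted p = 0.14). Over all genes, the median log2 fold change in PC3 at 48 h was -0.21 with median centring and -0.04 with quantile normalization, and relative to these IL1B still lay lower and CCL26 higher. Median centring called 1412 genes in PC3 and 1305 in LNCaP at 24 h, against 3066 and 2779 as reported, and array weights called 4842 in LNCaP at 24 h. The causes were not tested.

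The count of members called in LNCaP at 48 h was 0 with the mean of kept probes, where 4857 of all genes were called, against 4987 as reported. For the PC3 effect at 48 h minus that at 24 h it was 6 in the authors' processed table and 6 with an offset of 50. With single arrays left out, that count ran from 1 to 3. The counts for LNCaP at 24 h, for the LNCaP effects between times and for LNCaP Siomycin between times each ran from 0 to 1. For the comparisons between times the share of all genes called was not counted under each alternative, so nothing is read from these counts. The filter that asked for signal on all 24 arrays left no member to test. Over all genes no pairing by replicate number was seen: same-numbered arrays of different groups had a correlation of deviations between -0.15 and 0.16 (median 0.01, 84 pairs), and 10 of 24 arrays correlated best with their own number. Whether same-numbered cultures were set up together is not in the labels, and these values cannot tell. With the replicate number as a replicate block, 5 members were called in PC3 at 24 h in place of 4, CXCL8 being added (adjusted p = 0.048), and the number called did not change in the other comparisons. Over all genes 3049 were called in PC3 at 24 h with the block, against 3066 without it. Signal over background limits what can be said of CXCL3, CXCL5, CCL20 and IL1A, and of all members in LNCaP.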
